A study of Mus musculus with 6 samples.

Results

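Cytosolic ribosomal protein genes encode the proteins of the small (Rps) and large (Rpl) subunits of the ribosome that translates nuclear mRNA. They were taken by symbol from a table of RNA read counts per gene, which gave 82 of the 21526 genes in the table. The 82 are 31 genes of the small subunit, 43 of the large subunit, 3 of the P stalk (Rplp0, Rplp1 and Rplp2) and 5 paralogs whose symbols end in l. The genes Rpl7l1 and Rpl22l1, the retrogene Rps27rt and the fusion gene Fau do not match the symbol rule and are described apart. The libraries, 3 of Yap-activated gastric cancer and 3 of normal stomach (Normal), were made from mouse corpus epithelium detached with EDTA. The Yap-activated genotype was CluCreERT2;R26rtTA;HA-Yap+, a tamoxifen-dependent Cre named for Clu with rtTA and a tagged Yap, and the Normal genotype was WT. Every mouse was given tamoxifen (2 mg, 5 days in a row), followed by food with doxycycline (14 days). Since WT mice have none of these alleles, effects of Cre, of rtTA and of Yap cannot be told apart. No label ties a library to its own mouse, and the p-values therefore cover the spread among libraries, part of which may be technical.

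Each ribosome holds 1 copy of nearly every one of these proteins, and the P stalk proteins P1 and P2 are the main exception. Their mRNAs are known for a 5′ terminal oligopyrimidine (TOP) tract, a C at the start of the mRNA followed by further pyrimidines, through which mTORC1 and the binding protein Larp1 control their translation. In growing tissue Myc is known to raise ribosome production, and unassembled Rpl5 and Rpl11 bind Mdm2 and so stabilise p53. RNA levels do not show translation, and in tissue RNA a change in the mix of cells and a change of RNA per cell cannot be told apart.

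Totals ran from 25580734 to 44295619 counts in Yap-activated libraries and from 36815754 to 48440033 in Normal libraries. The tissues differed strongly in their cell markers. All 6 tested parietal cell genes, all 3 chief cell genes and all 4 pit cell genes on the marker lists fell, and the parietal genes summed to 264 to 355 CPM in Yap-activated and 22815 to 30489 CPM in Normal libraries. The chief cell genes summed to 152 to 186 CPM in Yap-activated and 87883 to 137628 CPM in Normal libraries. CPM here is the count scaled to library size after TMM scaling between libraries. Of 6 general epithelial genes such as Epcam, 4 rose, and they summed to 11972 to 14292 CPM in Yap-activated and 6119 to 7566 CPM in Normal libraries. Of 8 myeloid genes 6 rose, with sums of 342 to 1162 CPM in Yap-activated and 124 to 128 CPM in Normal libraries, and of 6 tested lymphoid genes 1 rose, with sums of 19.6 to 84.7 CPM in Yap-activated and 15.2 to 18.4 CPM in Normal libraries. Endothelial genes (4 of 5 lower) summed to 30.2 to 55.6 CPM in Yap-activated and 152 to 163 CPM in Normal libraries, and fibroblast and smooth muscle genes (4 of 8 lower) to 441 to 767 CPM in Yap-activated and 937 to 1356 CPM in Normal libraries. No marker on these lists was at 0 in all libraries. Of 8 cell cycle genes, 7 rose. Beside these lists, 29.8% of all genes tested were called higher and 29.7% lower. The part of these shifts in the results on ribosomal protein genes was not tested.

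As a family, the ribosomal protein genes took a larger share of the RNA in Yap-activated libraries. Their summed counts were 2.79%, 2.93% and 2.57% of all counts in Yap-activated replicates 1 to 3, against 1.49%, 1.41% and 1.12% in Normal replicates 1 to 3. The groups did not overlap, and the means were 2.77 ± 0.182% in Yap-activated and 1.34 ± 0.197% in Normal libraries (SD, n = 3 each; 2-sided exact permutation test, p = 0.1, which is the lowest value possible with 3 libraries a group). The ratio of the means depended on what the share was taken of. Without the mitochondrially encoded genes, which held 7.49% to 13.8% of counts in Yap-activated and 15.1% to 27.6% in Normal libraries, the shares were 3.08 ± 0.215% in Yap-activated and 1.69 ± 0.373% in Normal libraries (SD, n = 3 each). The 50 most abundant genes, none of which is a member, held 15.03% to 21.1% of counts in Yap-activated and 38.1% to 45.0% in Normal libraries. Without them the shares were 3.36 ± 0.245% in Yap-activated and 2.28 ± 0.434% in Normal libraries (SD, n = 3 each), so that the ratio of the means was 1.47, against 2.07 on all counts. Normal replicate 3 had the smallest share on each of the 3 denominators.

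**Figure D1:**
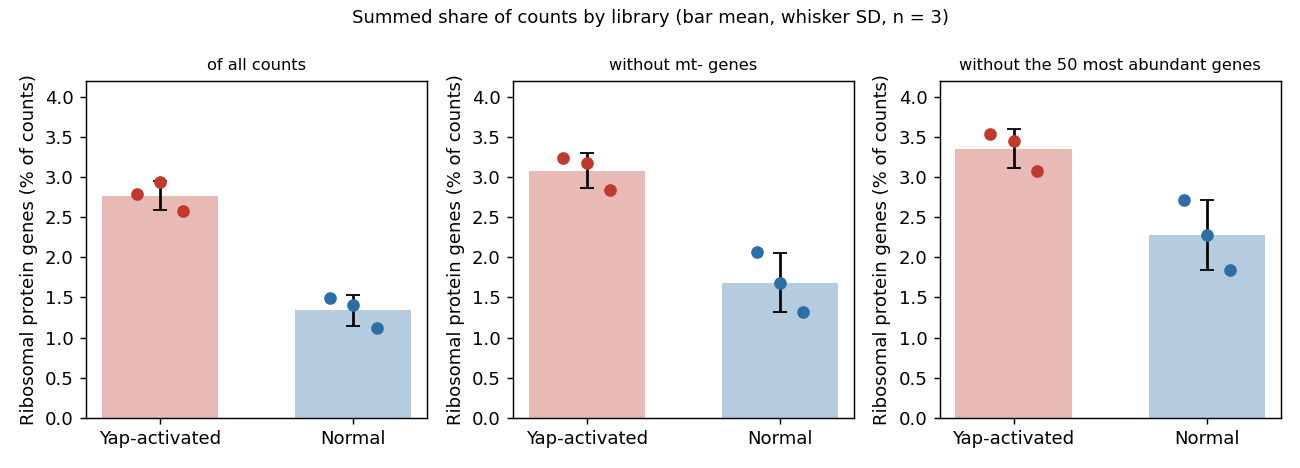
Summed counts of the 82 ribosomal protein genes as a percent of counts in each library, for Yap-activated (red) and Normal (blue), with 3 denominators: all counts, counts without mitochondrially encoded (mt-) genes, and counts without the 50 most abundant genes. Bars are means, whiskers SD and points libraries (n = 3 each); the libraries of the groups do not overlap in any panel, and the distance between the groups is smallest in the right panel.

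Of the 82 members, 80 passed the filter on low counts and were tested. The members not tested were Rpl10l, at 0 counts in all 6 libraries, and Rpl39l. Of the 80, 49 were higher and 1 was lower in Yap-activated tissue, and 30 did not pass (edgeR quasi-likelihood test, Benjamini-Hochberg adjusted p under 0.05 over all 14600 genes). That is 61.3% of members called higher, where 29.8% of all genes tested were called higher and 29.7% lower, 59.5% in all. The median log2 fold change was 0.62 over the members and 0.011 over all genes tested. The changes were modest: 71 of 80 members had a positive log2 fold change, 37 were between 1.5-fold and 2-fold, and 5 were above 2-fold. The libraries of the groups did not overlap at 52 members with Yap-activated higher and at 1 with Yap-activated lower, where all genes gave 33.2% and 34.4%. Scaled by library totals alone, all genes had a median of 0.50, and 74 members were called higher and none lower (also none at an unadjusted p under 0.05). The median of the members stood 0.61 above that of all genes under both scalings. A change of scaling moves all genes by nearly the same amount, so this distance could hardly change. All 49 genes were also called higher with library totals, DESeq2 size factors, upper quartile scaling, TMM without the 50 most abundant genes and TMM without mitochondrially encoded genes. These scalings use the same 6 libraries, and each raised the median log2 fold change of all genes (0.013 to 0.50, against 0.011). Calls of higher were therefore unlikely to be lost. All 49 were among the 52 members without overlap between groups. Their positive log2 fold changes in the 6 fits that each left out a library were therefore all but fixed in advance. Of the 49, 35 kept their call in every fit.

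**Figure D2:**
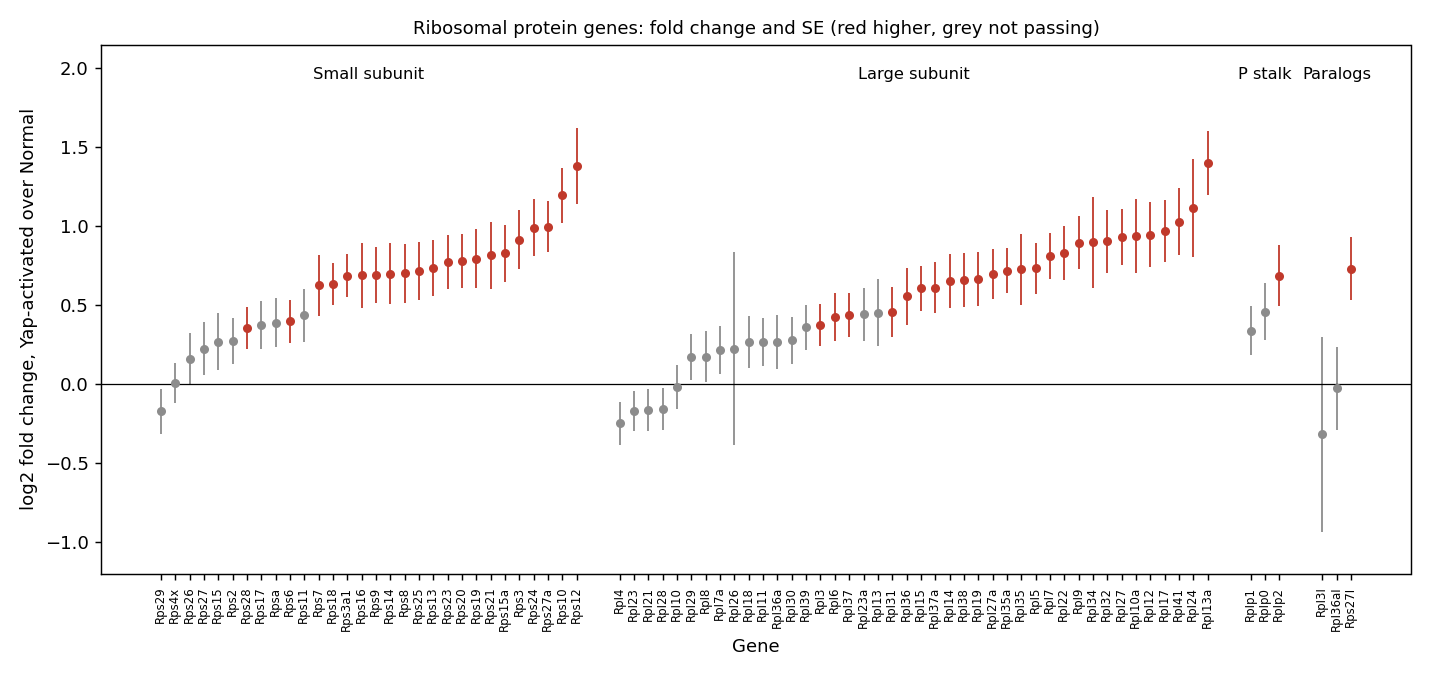
Log2 fold change (Yap-activated over Normal, TMM scaling) with its SE for 78 of the 80 tested ribosomal protein genes, grouped into small subunit, large subunit, P stalk and paralogs and sorted within each group. Red genes were called higher (49) and grey genes did not pass (29); most of the points lie between 0.2 and 1.

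Members of both subunits rose. In the small subunit 21 of 31 members rose and the other 10 did not pass, with a median log2 fold change of 0.69. In the large subunit 26 of 43 rose and 1 fell, with a median of 0.56. Rps3, which lines the channel where mRNA enters the small subunit, had 1068, 1202 and 1023 CPM in Yap-activated and 716, 574 and 456 CPM in Normal libraries. Every Yap-activated library was above every Normal one, and before correction for length Rps3 had the highest mean of all members in Yap-activated tissue (1098 CPM), while Rpl4 had the highest in Normal tissue (716 CPM). Rps24, mutated in some patients with the anaemia Diamond-Blackfan syndrome, had 511, 520 and 526 CPM in Yap-activated and 332, 248 and 203 CPM in Normal libraries (log2 fold change 0.99, SE 0.18, adjusted p = 0.00224, edgeR). Rpl17, which sits at the exit of the tunnel for the new protein, had 458, 489 and 461 CPM in Yap-activated and 307, 234 and 176 CPM in Normal libraries (log2 fold change 0.97, SE 0.20, adjusted p = 0.00356, edgeR). In both genes the Normal libraries spread more widely than the Yap-activated ones, with Normal replicate 3 lowest.

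Per kilobase of transcript, Rpl41, which encodes the shortest ribosomal protein, had the highest level of the large subunit, at 1916 CPM per kb in Yap-activated and 938 CPM per kb in Normal tissue. In the small subunit Rps21 was highest in Yap-activated tissue, at 1192 CPM per kb there and 677 CPM per kb in Normal tissue, where Rps27 (756 CPM per kb), Rps15 (723) and Rps14 (685) were above it. These orders depend on the annotated transcript taken for each gene, of 394 bases for Rps21 and 1908 bases for Rps3. Rps21 rose by 0.82 on the log2 scale (SE 0.21, adjusted p = 0.0109, edgeR), with 439, 497 and 474 CPM in Yap-activated and 353, 253 and 194 CPM in Normal libraries. At the low end Rpl24 had 4.06 CPM per kb in Yap-activated and 1.87 CPM per kb in Normal tissue. Rplp1 was highest in the P stalk, at 884 CPM per kb in Yap-activated and 698 CPM per kb in Normal tissue. Of the 50-base stretches of the Rpl24 transcript 18.3% are absent from every other annotated gene. Reads here were pairs of 50 bases, and the part of shared sequence in the low level of Rpl24 was not tested. Rpl24 had 2.74, 2.65 and 2.84 CPM in Yap-activated and 1.66, 1.28 and 0.853 CPM in Normal libraries, and its rise (adjusted p = 0.0154, edgeR) was lost without Normal replicate 2 (0.0527) or Normal replicate 3 (0.0550).

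Rps12 and Rpl13a had the largest fold changes of the small and the large subunit. Rps12, known in Drosophila for a role in competition between cells that differ in ribosomal protein genes, had 573, 606 and 544 CPM in Yap-activated and 296, 219 and 147 CPM in Normal libraries. The rise was 1.38 on the log2 scale (SE 0.24; edgeR, adjusted p = 0.00168). Rpl13a, part of a complex that silences inflammatory mRNAs in human myeloid cells, had 36.1, 31.4 and 22.9 CPM in Yap-activated and 13.7, 10.97 and 9.51 CPM in Normal libraries. The rise was 1.40 on the log2 scale (SE 0.21; edgeR, adjusted p = 6.95e-04). Rps10, also mutated in Diamond-Blackfan anaemia, had 21.9, 19.5 and 14.8 CPM in Yap-activated and 8.71, 7.67 and 8.09 CPM in Normal libraries (log2 fold change 1.20, SE 0.17, adjusted p = 6.75e-04, edgeR). None of these genes overlapped between groups, and each stayed past the threshold whichever library was left out. The share of their 50-base stretches found in no other annotated gene was 9.89% for Rps12, 42.6% for Rpl13a and 7.57% for Rps10. Rpl13a and Rps10 also share their strand and locus with the annotated coding genes Gm45713 and RPS10-NUDT3. Both were low for the family, with 301 to 1317 counts per library for Rpl13a and 256 to 816 for Rps10. The median member had a mean of 8725 counts. The part of shared sequence in the low levels and fold changes of Rpl13a and Rps10 was not tested.

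The genes that follow have roles beyond the subunit itself. All had positive log2 fold changes, some did not pass, and differences between them were not tested. Rps27a, which encodes ubiquitin fused to a small subunit protein, had 324, 295 and 350 CPM in Yap-activated and 193, 163 and 129 CPM in Normal libraries (log2 fold change 0.997, SE 0.16, adjusted p = 0.00121, edgeR). Rpl5 had 149, 148 and 136 CPM in Yap-activated and 105, 88.5 and 66.8 CPM in Normal libraries and rose by 0.73 on the log2 scale (SE 0.16, adjusted p = 0.00512, edgeR). Its partner Rpl11 had 150, 133 and 121 CPM in Yap-activated and 128, 117 and 90.3 CPM in Normal libraries, with overlapping groups and a log2 fold change of 0.27 that did not pass (adjusted p = 0.163, edgeR). Rpl22, needed in mice for the development of some T cells, had 287, 290 and 253 CPM in Yap-activated and 191, 153 and 122 CPM in Normal libraries. It rose by 0.83 on the log2 scale (SE 0.17, adjusted p = 0.00379, edgeR). Rps6, the substrate of the S6 kinases, rose less, by 0.40 (SE 0.14, adjusted p = 0.0362, edgeR), with 146, 143 and 136 CPM in Yap-activated and 125, 109 and 87.9 CPM in Normal libraries. The call on Rps6 held in 1 of the 6 fits that left out a library, and its adjusted p rose to 0.110 without Normal replicate 3. In the P stalk, which recruits elongation factors, Rplp2 rose by 0.69 (adjusted p = 0.0149, edgeR), while Rplp0 and Rplp1 had log2 fold changes of 0.46 and 0.34 that did not pass (adjusted p = 0.0570 and 0.0962, edgeR). Rplp0 did not overlap between groups. It passed with upper quartile scaling (adjusted p = 0.0354, edgeR) and the DESeq2 test (0.0191), but not with DESeq2 size factors (0.0511, edgeR).

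Of the 9 members with a negative log2 fold change 8 did not pass, from -0.02 for Rpl10 to -0.32 for the sparse paralog Rpl3l. Among them Rpl4 was at -0.25 (SE 0.14, adjusted p = 0.158) and Rpl23 at -0.17 (SE 0.13, adjusted p = 0.273, both edgeR), with overlapping groups. All 9 were positive with library totals.

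A ratio within a library does not depend on how libraries are scaled, so each member was also set against the summed counts of the family. On that scale 4 of 80 members were higher and 8 were lower in Yap-activated tissue (edgeR with the family sum as library size, adjusted over all genes), where 13.3% of all genes were called higher and 47.1% lower. The 4 were Rps12, Rpl13a, Rps10 and Rpl41, and 7 of the 8 were Rpl4, Rps29, Rpl21, Rpl23, Rpl28, Rpl10 and Rps4x. With the family sum taken without its 5 most abundant members the call on Rpl41 was lost (adjusted p = 0.0592, edgeR), which left 3 higher and 8 lower. Rps12 made up 2.37%, 2.46% and 2.56% of the family in Yap-activated and 1.59%, 1.35% and 1.13% in Normal libraries, a relative log2 difference of 0.86 (SE 0.21, adjusted p = 0.00274, edgeR). Rpl4, which reaches into the exit tunnel, made up 2.44%, 2.73% and 2.57% in Yap-activated and 3.89%, 4.75% and 5.03% in Normal libraries. Its relative log2 difference was -0.82 (SE 0.21, adjusted p = 0.00402, edgeR), while its CPM had overlapped. Rpl4 took a smaller share of the family in every Yap-activated library than in any Normal one. Such a lack of overlap was common on this scale. It held for 27 of 80 tested members with Yap-activated lower and for 27 with it higher, where all genes gave 52.8% and 14.9%.

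Rpl23, Rpl21, Rpl28 and Rps29 lay close together, with relative log2 differences from -0.73 to -0.72 (adjusted p from 0.00453 to 0.00590, edgeR). Their CPM overlapped between groups: Rpl23 had 201, 177 and 181 CPM in Yap-activated and 228, 221 and 180 CPM in Normal libraries. Rpl10, which joins the large subunit late in its assembly, and Rps4x are on the X chromosome and had relative log2 differences of -0.58 and -0.54 (adjusted p = 0.0234 and 0.0302, edgeR). Rpl10 had 271, 329 and 276 CPM in Yap-activated and 325, 303 and 259 CPM in Normal libraries, and Rps4x had 287, 308 and 301 CPM in Yap-activated and 332, 298 and 260 CPM in Normal libraries. Both overlapped between groups on the TMM scale, with log2 fold changes of -0.02 (SE 0.14) and 0.0089 (SE 0.13). The other X-linked members, Rpl36a and Rpl39, were at 0.27 and 0.36 log2 (adjusted p = 0.208 and 0.0578, edgeR), so none of the 4 X-linked members passed, against 49 higher and 1 lower among 76 autosomal ones. That count depended on the scaling: Rpl39 passed with DESeq2 size factors (adjusted p = 0.0489), upper quartile scaling (0.0436) and the DESeq2 test (0.0477), and all 4 passed with library totals (adjusted p from 7.04e-04 to 0.0158, edgeR). This split by chromosome was made after the values were seen, and the difference was not tested. Rps12, Rpl13a, Rpl4, Rpl21, Rpl28 and Rps29 kept their calls against the family in all 6 fits that left out a library and Rpl23 in 5, while Rpl10, Rps4x and Rps10 kept them in 2 and Rpl41 in 1.

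**Figure D3:**
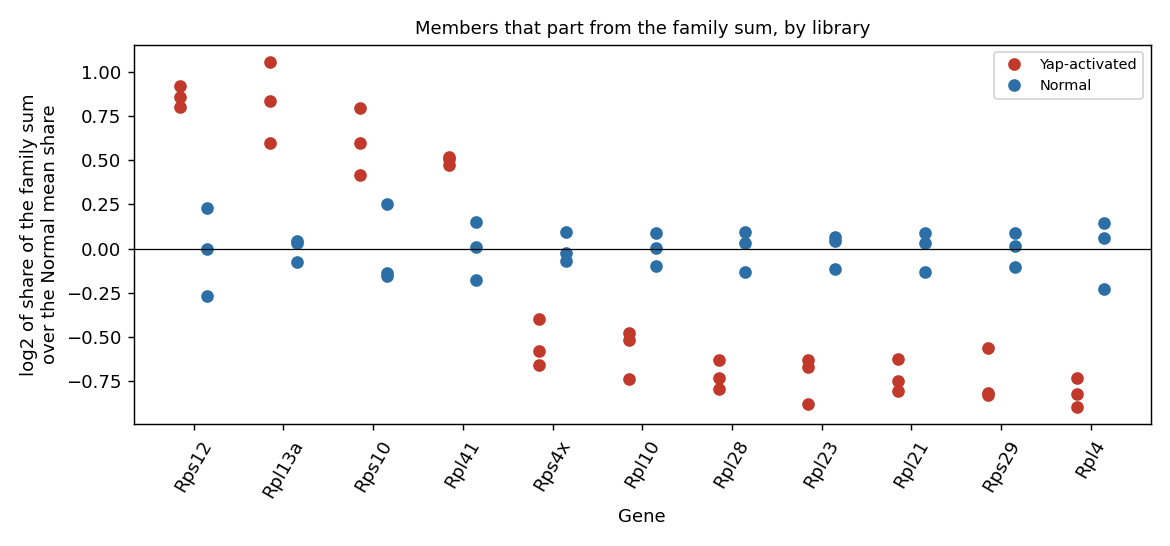
Share of the summed ribosomal protein counts taken by each of 11 genes called against the family sum, as log2 of the share over the mean Normal share, for Yap-activated (red) and Normal (blue) libraries (points, n = 3 each). The 4 genes on the left stand above 0.4 in all Yap-activated libraries and the 7 on the right at or below -0.4, while Normal libraries stay within 0.3 of 0.

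**Figure D4:**
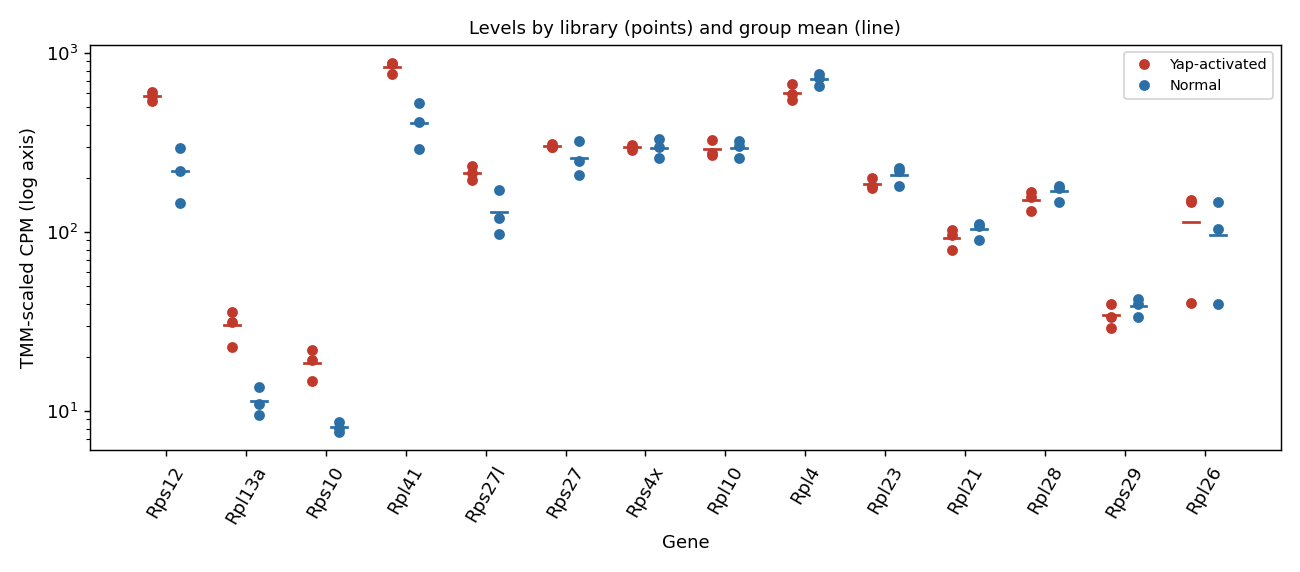
TMM-scaled CPM in each library (points, log axis) with the group mean (line) for genes that part from the family, Rps27 with its paralog Rps27l, and Rpl26, with Yap-activated (red) left of Normal (blue). The groups are apart for Rps12, Rpl13a, Rps10, Rpl41 and Rps27l and overlap for the other genes, and Rpl26 has a single low library in each group.

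The paralogs did not follow one course. Rps27l, a p53 target that encodes a near copy of the Rps27 protein, had 234.6, 197 and 216 CPM in Yap-activated and 171, 120 and 97.8 CPM in Normal libraries (log2 fold change 0.73, SE 0.20, adjusted p = 0.0146, edgeR). Its parent Rps27 had 301, 312 and 300 CPM in Yap-activated and 324, 250 and 208 CPM in Normal libraries, which overlapped (log2 fold change 0.22, adjusted p = 0.276, edgeR). For every 100 counts of Rps27 there were 77.9, 63.0 and 71.8 counts of Rps27l in Yap-activated and 52.8, 48.1 and 47.1 in Normal libraries, a ratio 1.43 times higher (2-sided exact permutation p = 0.1, the smallest possible). Of 10 p53 target genes on a separate list, 9 rose, where 29.8% of all genes tested were called higher. The part of p53 in the rise of Rps27l was not tested. Only 1.35% of the 50-base stretches of Rps27 are found in no other annotated gene, against 77.6% for Rps27l. The count of the parent is therefore uncertain, though single stretches were compared and not read pairs. The call on Rps27l was lost without Normal replicate 2 (adjusted p = 0.0567, edgeR).

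Rpl36al, a paralog of Rpl36a, had 1.76, 1.79 and 1.56 CPM in Yap-activated and 1.98, 1.64 and 1.58 CPM in Normal libraries (log2 fold change -0.03, adjusted p = 0.940, edgeR). Per 100 counts of Rpl36a it gave 2.47, 2.97 and 2.90 counts in Yap-activated and 3.26, 3.09 and 3.95 in Normal libraries, lower in all 3 Yap-activated libraries (2-sided exact permutation p = 0.1, the smallest possible). Rpl3l, which replaces Rpl3 in striated muscle, had 9, 6 and 16 counts in Yap-activated and 13, 4 and 15 counts in Normal libraries, and a difference was not detectable at this depth (log2 fold change -0.32, SE 0.62). Its parent Rpl3 had 307, 323 and 267 CPM in Yap-activated and 258, 226 and 207 CPM in Normal libraries and rose by 0.38 on the log2 scale (SE 0.13, adjusted p = 0.0388, edgeR), a call lost in 4 of the 6 fits without a library (adjusted p up to 0.139). Rpl39l, known from mouse testis, had 1, 1 and 3 counts in Yap-activated and 0 in each Normal library, and its parent Rpl39 had 74.1, 69.8 and 79.0 CPM in Yap-activated and 69.2, 56.6 and 47.8 CPM in Normal libraries. Rpl10l, also of testis, had no counts.

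Rpl26, which Mdm2 also binds, varied more within groups than any other member with more than a few counts per library. It had 152, 148 and 40.2 CPM in Yap-activated and 39.7, 104 and 147 CPM in Normal libraries, with a log2 fold change of 0.22 (SE 0.61, adjusted p = 0.770, edgeR). A single library was low in each group, Yap-activated replicate 3 and Normal replicate 1. Rpl34 also spread widely in Normal tissue, with 299, 221 and 299 CPM in Yap-activated and 200, 150 and 89.6 CPM in Normal libraries. It rose by 0.90 on the log2 scale (SE 0.29, adjusted p = 0.0291, edgeR), a call that held in 3 of the 6 fits without a library.

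Many annotated genes, mostly processed pseudogenes, carry copies of these transcripts. The median member had 41.3% of its 50-base stretches in no other annotated gene, 52 of 82 had less than 50%, and 3 shared none at all. Among tested members the share of unique stretches had a Spearman rho of -0.05 with the log2 fold change over 80 genes, which share libraries and are not independent. Of 27 members below 25% unique 17 rose, of 43 from 25% to 75% 27 rose and 1 fell, and of 10 above 75% 5 rose and 5 did not pass. The median log2 fold changes of these classes were 0.46, 0.66 and 0.58. The 7 rows of the table named as pseudogenes of the family summed to 3.66 to 4.55 CPM in Yap-activated and 1.55 to 3.23 CPM in Normal libraries, and the 3 that were tested did not pass (log2 fold changes of 0.73 to 0.89). In introns or elsewhere inside the locus 30 members hold a small nucleolar RNA gene (58 in all), and 17 of them rose and 1 fell, against 32 of the 50 tested members without one.

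**Figure D5:**
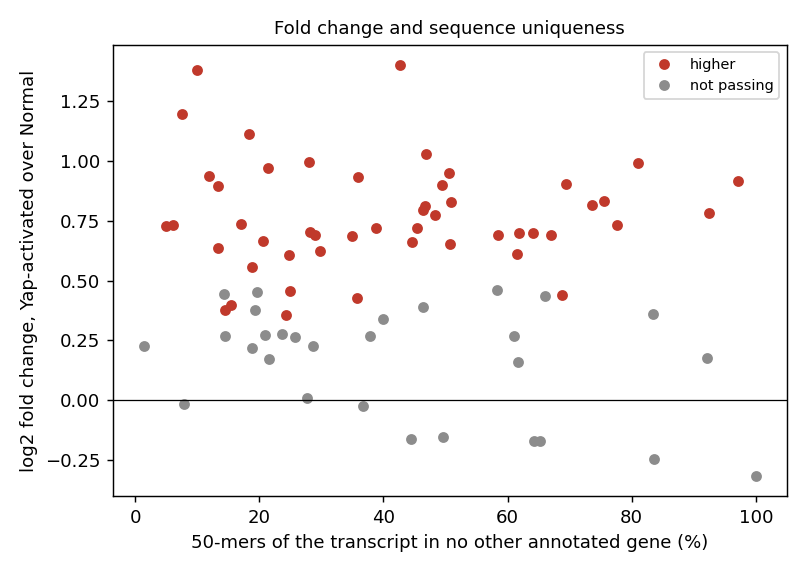
Log2 fold change (Yap-activated over Normal) of 78 of the 80 tested members against the percent of 50-base stretches of the transcript that no other annotated gene holds, colored by call. Red points (higher) occur at low, middle and high uniqueness, and the Spearman rho over all 80 is -0.05.

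Promoter windows from RefSeq (GRCm38.p6, 250 bases before to 50 after an annotated start) were found for 62 of the 82 members. A C at the start followed by at least 4 pyrimidines, the TOP pattern, was present at 12 of 62 members (19.4%) and at 2.23% of the 16496 genes with a window. The motif CCGGAAG, the core of sites bound by GABP and other ETS factors, occurred on either strand in 38.7% of member windows and 12.4% of all windows. AAGATGG, part of the YY1 site, occurred in 12.9% of member windows and 6.46% of all, and GGGCGG, a core of Sp1 sites, in 59.7% of member windows and 48.3% of all. The E-box CACGTG occurred in 8.06% of member windows and 8.11% of all, TATAAA in 8.06% of member windows and 12.9% of all, and GGAATG, a core of TEAD sites, in 8.06% of member windows and 13.1% of all. All were searched on both strands except the TOP pattern, and CCGGAAG and AAGATGG can overlap at AAG. Within the family, 10 of 12 tested members with the TOP pattern rose at a median log2 fold change of 0.66, and 30 of 48 without it at 0.65. With CCGGAAG 17 of 23 rose at a median of 0.63, and without it 23 of 37 at 0.69. An annotated start can lie several bases or more from the true one, so the absence of the pattern in a window says only that these letters are not there. Presence has a like limit. Among members with the pattern, the start used lies 470 bases from the start of the GENCODE transcript for Rps15a, 493 for Rpl35 and 769 for Rps10.

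The windows below run from 80 bases before to 20 bases after the annotated start for genes that parted from the family upward (Rps12, Rpl13a and Rps10), for the pair Rps27l and Rps27, and for genes that parted downward (Rpl4, Rpl28 and Rps4x). Capitals mark the longest pyrimidine run near the start. The start used lies 120 bases from the start of the GENCODE transcript for Rps12 and 769 bases for Rps10, and within 25 bases for the others.
Rps12, chr10:23787190-23787289, minus strand: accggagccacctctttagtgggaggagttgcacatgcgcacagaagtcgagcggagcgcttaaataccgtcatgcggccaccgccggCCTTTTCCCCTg
Rpl13a, chr7:45128726-45128825, minus strand: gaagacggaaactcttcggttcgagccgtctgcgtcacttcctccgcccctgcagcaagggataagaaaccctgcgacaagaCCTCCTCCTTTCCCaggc
Rps10, chr17:27635225-27635324, minus strand: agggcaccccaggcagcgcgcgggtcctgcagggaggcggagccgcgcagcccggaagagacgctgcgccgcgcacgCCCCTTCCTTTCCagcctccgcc
Rps27l, chr9:66946006-66946105, plus strand: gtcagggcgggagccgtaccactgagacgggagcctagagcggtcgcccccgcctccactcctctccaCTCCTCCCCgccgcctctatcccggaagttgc
Rps27, chr3:90213629-90213728, minus strand: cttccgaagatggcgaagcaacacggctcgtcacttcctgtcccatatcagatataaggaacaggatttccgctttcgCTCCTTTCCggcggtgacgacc
Rpl4, chr9:64173307-64173406, plus strand: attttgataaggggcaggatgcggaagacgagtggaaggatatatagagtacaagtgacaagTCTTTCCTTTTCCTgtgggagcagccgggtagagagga
Rpl28, chr7:4792885-4792984, plus strand: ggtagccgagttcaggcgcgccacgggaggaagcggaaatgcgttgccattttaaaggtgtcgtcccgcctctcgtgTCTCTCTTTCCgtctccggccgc
Rps4x, chrX:102189372-102189471, minus strand: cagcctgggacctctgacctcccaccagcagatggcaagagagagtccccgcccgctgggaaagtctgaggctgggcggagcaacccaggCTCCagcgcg

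The marked run is 11 bases long in Rps12, 14 in Rpl13a and 13 in Rps10, and it is 14 bases in Rpl4, 11 in Rpl28 and 4 in Rps4x. Among windows not printed, the run is 3 bases in Rpl41, which rose against the family, and in Rpl23 and Rpl10, which fell. Among these few windows, long and short runs stand both in genes that rose against the family and in genes that fell against it. Rpl21 and Rps29, which also fell against the family, have no window. The role of the run was not tested. In Rps27 a run of 9 bases begins 2 bases before the start, and in Rps27l a run of 9 begins 12 bases before it.

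Of the genes beside the family, Fau, the fusion gene of a small subunit protein, rose by 0.67 on the log2 scale (adjusted p = 0.0137, edgeR). Rpl22l1, the paralog of Rpl22, rose by 0.71 (adjusted p = 0.0219, edgeR), and its ratio to Rpl22 overlapped between groups. Rpl7l1 was at 0.22 (adjusted p = 0.200, edgeR), and per 100 counts of Rpl7 it gave 11.7, 9.89 and 10.3 counts in Yap-activated and 14.9, 16.9 and 16.7 in Normal libraries (2-sided exact permutation p = 0.1, the smallest possible). Rps27rt was at 0.23 and did not pass (adjusted p = 0.416, edgeR).

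Of 13 tested genes on a list of other mRNAs known for a TOP tract, 7 rose and 6 did not pass, with a median log2 fold change of 0.33. Beside this list and the next ones, 29.8% of all genes tested were called higher and 29.7% lower. The genes on the TOP list include Nap1l1, a histone chaperone, at 2.33 (SE 0.17), Npm1, a nucleolar chaperone, at 1.32 (SE 0.15), and Rack1, a scaffold on the small subunit, at 0.57 (SE 0.19). Of 10 elongation factor genes and their relatives 2 rose, 2 fell and 6 did not pass. Eef1a1, which brings tRNA to the ribosome and is the most abundant of them, had 2681 ± 447 CPM in Yap-activated and 2603 ± 138 CPM in Normal libraries (SD, n = 3 each; log2 fold change 0.04, SE 0.18). Eef2, the translocation factor, fell by 0.59 (SE 0.15, adjusted p = 0.00971, edgeR), Eef1a2, under 1 CPM in both groups, fell by 2.95 (SE 0.57), and Eef1e1, a part of the tRNA synthetase complex, rose by 1.35 (SE 0.22). Of 15 tested assembly factors 2 rose, 4 fell and 9 did not pass, with a median of -0.15. Tsr1, needed to mature the small subunit, fell by 0.86 (SE 0.12), Sbds, which readies the large subunit, rose by 0.51 (SE 0.10), and Eif6, the factor that Sbds helps to remove, was at 0.28 and did not pass (adjusted p = 0.101, edgeR).

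Among 24 genes that control growth or ribosomal protein genes 9 rose, 8 fell and 7 did not pass. Of all genes tested, 29.8% were called higher and 29.7% lower, so calls in both directions were common. Mtor, the kinase of mTORC1, fell to 37.9 ± 2.46 CPM in Yap-activated libraries, against 143 ± 8.87 CPM in Normal libraries (SD, n = 3 each; log2 fold change -1.92, SE 0.10, adjusted p = 4.67e-06, edgeR). Larp1 had 213 ± 17.4 CPM in Yap-activated and 333 ± 26.1 CPM in Normal libraries (SD, n = 3 each; log2 fold change -0.65, SE 0.12). Mdm2 had 188 ± 11.02 CPM in Yap-activated and 64.9 ± 0.264 CPM in Normal libraries (SD, n = 3 each; log2 fold change 1.53, SE 0.09). Myc rose by 1.37 (SE 0.29, adjusted p = 0.00545, edgeR) and Mycn by 3.37 (SE 0.24); both were named after their values were seen. The ribosomal proteins of mitochondria, encoded by a separate set of nuclear genes, had 4 of 77 tested genes higher, 31 lower and 42 that did not pass, with a median log2 fold change of -0.28. The difference between the families was not tested.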

How the data were processed

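The authors deposited raw, unnormalized read counts per gene symbol for all 6 libraries in 1 table. Tools named in the submitters' processing notes are DESeq2 and STAR (2.4.2a), with mm10 (GRCm38) as genome. Per the labels, libraries were stranded poly(A) libraries read as paired 50 bp. How reads were counted (program, strand, annotation, reads with several matches) is not given in sources used for this work. Reads of pseudogenes, paralogs and antisense genes (at 21 members) can therefore sit in a member's count or be missing from it.

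The fit used R 4.3.3 and edgeR 4.0.16: filterByExpr (minimum count 10; 14600 genes kept), TMM and the robust quasi-likelihood test on all 6 libraries (Yap-activated over Normal), with Benjamini-Hochberg adjustment over all genes and a threshold of 0.05. SE values are |log2 fold change| over the root of F. The same test was run with the summed member counts as library size. Alternatives used DESeq2 1.42.0 and limma 3.58.1, other scalings and filters, thinning, a replicate block and leaving out each library. Fits were tested on simulated data. Levels per kb use the shortest best-ranked coding transcript of GENCODE M21 (GRCm38), and 50-base stretches were compared with all its transcripts on both strands. Stretches were compared singly, and a read pair can be unique where 1 of its reads is not. A level of 0 counts allows up to 3 counts, and exact tests cover the spread between libraries only.

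The members and lists were chosen with earlier results of these data known. Named members are those called lower, the 8 largest and 4 smallest log2 fold changes, the highest per kb of each subunit and of the stalk, the paralogs with their parents, and Rpl5, Rpl11, Rps6, Rpl13a, Rpl22, Rps27a, Rps4x and Rpl10. In other lists they are the 2 smallest p and the highest mean CPM. Members called against the family, Rps3, Rpl26, Rpl34, Eef2, Rplp0, Rplp2, Myc and Mycn were named after their values were seen, as were the promoters chosen for printing. Results on a few genes of these rules are not reported here.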

Additional observations from a re-analysis of the deposited data

How the results depend on the processing

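The number of members called higher ran from 49 to 58 over the other scalings apart from library totals, the other filters, tests and thinning and the replicate block, and from 35 to 55 when each library was left out. With library totals alone it was 74, with a median member log2 fold change of 1.12. The 1 call lower became 0 with DESeq2 size factors, library totals, upper quartile scaling, TMM without the 50 most abundant or the mitochondrially encoded genes, a filter of 1 CPM in 3 libraries, the non-robust fit, limma voom and thinning, and was 0 to 1 when libraries were left out. At an unadjusted p under 0.05 it was 1 in each of these settings except library totals (0) and 3 of the fits without a library (0). Log2 fold changes that turned positive with library totals were 0.32 for Rpl23, 0.24 for Rpl4, 0.18 for Rpl3l, 0.47 for Rpl36al and 0.48 for Rpl10. Rpl36al and Rpl10 also did so with upper quartile scaling (0.024 and 0.032) and thinning (0.054 and 0.0014). Leaving out a library gave -0.78 to 0.089 for Rpl3l, -0.092 to 0.073 for Rpl36al, -0.12 to 0.051 for Rpl10 and -0.083 to 0.090 for Rps4x, and -1.22 to 0.0068 for the log2 ratio of Rpl3l to Rpl3. Against the family sum, 2 to 6 members were higher and 5 to 9 lower when libraries were left out, and 3 higher and 8 lower with the sum taken without the 5 most abundant members. The difference in summed share was 1.08 percentage points without the 50 most abundant genes, against 1.43. The cause of these shifts was not tested. Same-numbered libraries of the groups had correlations of 0.04, 0.0027 and 0.07, and differently numbered ones -0.11 to 0.066. With 3 libraries a group, these values cannot show whether the numbers pair the libraries. With a replicate block, 58 members were higher and 1 lower, and 13 higher and 11 lower against the family; of the X-linked members Rpl36a then passed (adjusted p = 0.0453, edgeR). Depth limits Rpl3l, Rpl39l, Rpl36al and Rpl24.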
